A study of Rattus norvegicus with 71 samples.

Results

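The serotonin transporter gene Slc6a4 and 9 serotonin receptor genes (Htr1a, Htr1b, Htr1f, Htr2a, Htr2c, Htr3a, Htr4, Htr6 and Htr7) were followed in the brains of newborn rats whose dams carried autoantibodies linked to autism. These 10 genes were taken by symbol from a table of 17494 genes, by a rule that uses no measured value, although earlier results of these data were known when it was set. RNA was sequenced from 71 offspring of 27 litters on postnatal day 2 (PND2), 35 male and 36 female, with 1 library per animal. The animals were wild-type Sprague-Dawley rats, and the tissue was a coronal slice of about 150 µm that held the hippocampal formation with neighbouring cortical and subcortical structures. Dams had been injected weekly with Freund's adjuvant and synthetic peptides of the proteins after which each pattern is named, to raise maternal autism-related autoantibodies (MARA-ABs), and control dams had received adjuvant and saline. The exposure was therefore applied to the dam, and littermates shared it.

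Saline controls were 24 animals (7 litters). LDHA/B+CRMP1+STIP1 had 25 offspring (9 litters), CRMP1+CRMP2 had 8 (4 litters), STIP1+NSE had 8 (4 litters) and CRMP1+GDA had 6 (3 litters). The samples fell in 2 batches, read from the series in the sample titles. In batch 1 there were 12 controls beside 16 LDHA/B+CRMP1+STIP1 offspring, and in batch 2 another 12 controls, the remaining 9 of that pattern and all offspring of the other 3 patterns. Libraries held 24880182 to 36234952 counts, so that 1 CPM (a count scaled to the library total) stood for 24.9 to 36.2 counts.

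Serotonin reaches the forebrain along fibres of raphe neurons in the hindbrain, which make it with the enzyme Tph2, pack it into vesicles with Slc18a2 and take it back with the transporter encoded by Slc6a4. Around birth, neurons of the sensory thalamus that do not make serotonin also express Slc6a4 and Slc18a2 for a time and take up serotonin from outside. Of the receptors, Htr1a, Htr1b and Htr1f couple to inhibitory G proteins, Htr2a and Htr2c to the Gq pathway, and Htr4, Htr6 and Htr7 to proteins that raise cyclic AMP, while Htr3a forms an ion channel.

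Library composition differed between the batches, and each result on the batches below stands beside this fact. The summed level of the 9 detected genes of a thalamus marker list (led by Tcf7l2) was 138 to 383 CPM in batch 1 and 175 to 1445 CPM in batch 2, with medians of 224 and 992. A choroid plexus list (led by Ttr) had medians of 24.5 and 1052 CPM, and a striatum list had medians of 513 and 132. A cortical excitatory neuron list had medians of 1746 and 1145 CPM. The raphe marker Fev was at 0 in 55 of 71 libraries and reached 1.83 CPM at most, although 5 libraries held over 2 CPM of Tph2. The part of these differences in the batch results was not tested, and in bulk tissue fewer cells of a type cannot be told apart from less RNA per cell.

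The members lie on 9 chromosomes of the rat build rn7. Slc6a4 spans chr10:61837760-61858926 on the plus strand with 13 exon intervals. The inhibitory receptor genes have 1 exon interval each, Htr1a at chr2:36694174-36695442 (plus), Htr1b at chr8:82532254-82533414 (minus) and Htr1f at chr11:2642751-2644150 (minus). Htr2a lies at chr15:49951196-50019257 (plus, 3 intervals), Htr2c at chrX:110641153-110870288 (plus, 6) and Htr3a at chr8:49242020-49254389 (minus, 9). Htr4 lies at chr18:55783265-55908475 (plus, 7), Htr6 at chr5:151296662-151311912 (minus, 3) and Htr7 at chr1:233638046-233760444 (minus, 3).

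For 5 of the 10 members RefSeq gave a promoter, in build GRCr8 and not in the build of the counts, and 4 are shown, those of Htr1b, Htr2c, Htr6 and Htr7, whose levels went together across the 28 animals of batch 1 (r from 0.60 for Htr6 and Htr7 to 0.85 for Htr2c and Htr6). Across the 43 animals of batch 2 the r of these pairs ran from 0.19 for Htr2c and Htr6 to 0.70 for Htr6 and Htr7. Each is the 250 bases before the annotated start, written along the gene. Capitals mark the CCAAT box (CCAAT, or ATTGG on the other strand) and the core of the cyclic AMP response element (TGACG, or CGTCA on the other strand).
Htr1b, chr8:91414816-91415065 (minus): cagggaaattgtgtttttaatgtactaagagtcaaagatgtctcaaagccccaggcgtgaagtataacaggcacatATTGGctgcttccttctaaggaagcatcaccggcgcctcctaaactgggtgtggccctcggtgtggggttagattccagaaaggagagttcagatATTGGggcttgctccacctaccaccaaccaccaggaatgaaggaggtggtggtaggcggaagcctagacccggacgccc
Htr2c, chrX:115452940-115453189 (plus): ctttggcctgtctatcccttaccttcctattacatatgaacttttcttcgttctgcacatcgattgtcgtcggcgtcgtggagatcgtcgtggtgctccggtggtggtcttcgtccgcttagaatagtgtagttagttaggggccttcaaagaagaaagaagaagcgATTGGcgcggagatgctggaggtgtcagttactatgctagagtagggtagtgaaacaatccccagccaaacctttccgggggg
Htr6, chr5:156595148-156595397 (minus): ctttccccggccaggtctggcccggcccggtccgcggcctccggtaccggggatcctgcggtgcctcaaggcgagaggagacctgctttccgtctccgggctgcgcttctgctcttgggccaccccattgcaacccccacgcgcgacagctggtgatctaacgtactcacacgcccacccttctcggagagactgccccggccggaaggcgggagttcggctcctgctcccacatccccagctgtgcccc
Htr7, chr1:243173049-243173298 (minus): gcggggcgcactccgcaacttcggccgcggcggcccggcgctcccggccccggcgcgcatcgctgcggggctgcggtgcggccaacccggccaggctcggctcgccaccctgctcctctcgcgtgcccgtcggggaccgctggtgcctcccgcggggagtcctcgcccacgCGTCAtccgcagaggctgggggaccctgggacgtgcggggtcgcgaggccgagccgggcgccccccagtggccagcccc

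GC content of these 4 windows was 52.4% for Htr1b, 50.4% for Htr2c, 69.2% for Htr6 and 80.8% for Htr7, against a median of 51.2% over 33469 rat promoters of the same length. The windows held 7, 15, 22 and 38 CpG sites, against a median of 5. The promoter of Htr1f, not shown, lay below both medians, with 27.2% GC and 0 CpG sites, and held a CCAAT box. Among all promoters 34.02% held a CCAAT box and 18.2% the TGACG core on either strand. The letters of the TATA box (TATAAA) and the GC box (GGGCGG), present in 12.9% and 30.5% of all promoters, were in none of the 4 windows.

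Levels of the members were compared per exon length, as length-normalised CPM (RPKM). In batch 1 the order of the medians was Htr1b 11.5, Htr2a 6.26, Htr3a 5.32, Htr2c 5.18, Htr1a 2.92, Htr7 2.52, Htr6 1.61, Htr4 0.703, Slc6a4 0.675 and Htr1f 0.629 RPKM. Htr1b was above Htr2a in 28 of 28 animals and Htr6 above Htr4 in 27, while Htr4 was above Slc6a4 in 15 of 28 and Slc6a4 above Htr1f in 17. In batch 2 the order was Htr1b 13.2, Htr2c 9.37, Slc6a4 5.74, Htr7 5.08, Htr3a 5.04, Htr2a 3.66, Htr1a 3.37, Htr4 2.02, Htr6 0.978 and Htr1f 0.284 RPKM. Neighbours from Slc6a4 to Htr3a did not separate, since Slc6a4 exceeded Htr7 in 22 of 43 animals and Htr7 exceeded Htr3a in 20. Htr4 exceeded Htr6 in 43 of 43 animals. Between the orders, the transporter moved from the ninth to the third place, and Htr2a from the second to the sixth.

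**Figure D1:**
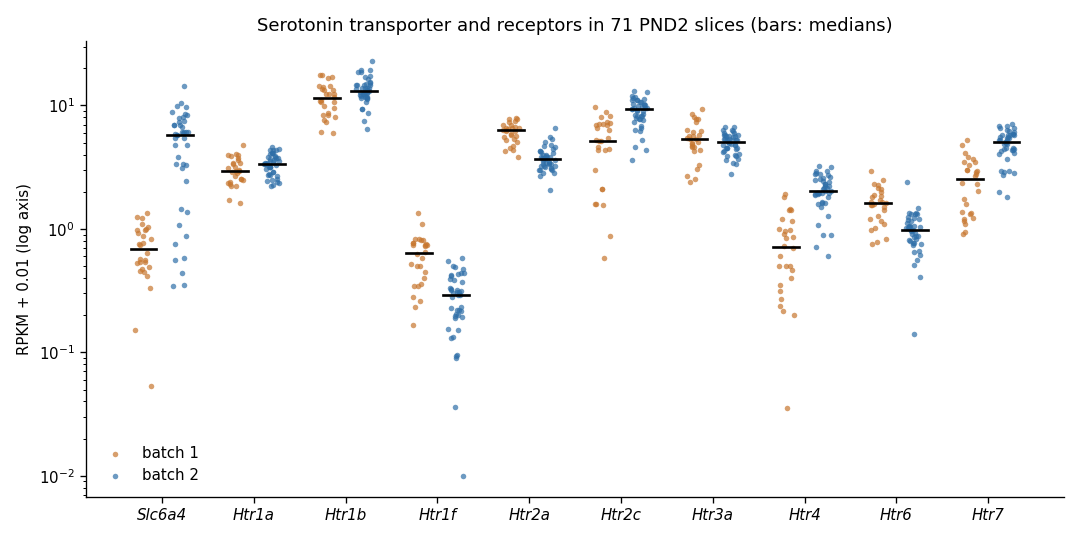
RPKM of the 10 genes in each animal of batch 1 (n = 28) and batch 2 (n = 43), on a log axis with 0.01 added. Htr1b is highest in both batches by median (11.5 and 13.2), and the Slc6a4 points of batch 2 lie mostly above those of batch 1 (medians 5.74 and 0.675).

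None of the 10 was among the abundant transcripts of the slice. Htr1b, the highest, stood at the 49.3rd percentile of median RPKM among 12477 genes tested, Slc6a4 at the 11.9th and Htr1f at the 2.40th. Htr1f reached 1 CPM in 13 of 71 animals, Htr4 in 54, and Slc6a4 in 66. No animal was at 0 for 9 of the members, and Htr1f was at 0 in 1 animal.

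The largest difference among the 10 genes was that of the transporter between batches of control animals, a comparison that holds no exposure. In controls, Slc6a4 ranged from 1.16 to 3.55 CPM with a median of 2.23 in batch 1 (n = 12), and from 0.899 to 27.5 CPM with a median of 17 in batch 2 (n = 12). In batch 2, 11 of the 12 controls lay above every control of batch 1, and 1 lay below them all. That animal, a female at 0.899 CPM, had a male littermate at 15.2 CPM. Slc6a4 was 7.03-fold higher in batch 2 (95% interval 4.51 to 10.96) by edgeR's quasi-likelihood test with sex as a covariate (log2 fold change = 2.81, SE = 0.33, FDR = 5.53e-07 after Benjamini-Hochberg adjustment). Over all animals, 35 of 43 in batch 2 exceeded the highest of batch 1.

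Of the 10 members, 8 passed the same test (FDR < 0.1) between the control batches, as did 41.5% of the 12565 genes tested. The members' median log2 fold change was 0.28, and that of all genes 0.00. Higher in batch 2 were 5 members (background 21.3%), and lower were 3 (background 20.2%). No member separated the 12 from the 12 controls fully, which 1.64% of genes did.

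Htr4, a receptor that raises cyclic AMP, ranged from 0.262 to 2.27 CPM (median 0.762) in batch 1 controls and from 1.595 to 3.67 CPM (median 2.45) in those of batch 2. The ranges overlapped, with 10 of 12 batch 2 controls above all of batch 1 (log2 fold change = 1.36, SE = 0.28, FDR = 0.000421). Htr7, coupled the same way, ranged from 1.78 to 7.86 CPM (median 3.89) and from 4.33 to 10.2 CPM (median 8.60), with 8 of 12 above all of batch 1 (log2 fold change = 1.01, SE = 0.24, FDR = 0.00183). Htr6, the third of this class, went the other way, from 1.44 to 5.60 CPM (median 3.02) in batch 1 and from 1.05 to 2.37 CPM (median 1.97) in batch 2 (log2 fold change = -0.75, SE = 0.19, FDR = 0.00307). Receptors of 1 signalling class thus did not share a direction.

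Htr2a, a Gq-coupled receptor of cortical neurons, ranged from 6.03 to 12.5 CPM (median 8.95) in batch 1 controls and from 4.17 to 6.11 CPM (median 4.99) in batch 2 controls. Of the batch 2 controls, 11 of 12 lay below every batch 1 control (log2 fold change = -0.86, SE = 0.11, FDR = 1.38e-06). Htr2c, a Gq-coupled receptor abundant in choroid plexus, ranged from 2.49 to 42.95 CPM (median 22.5) and from 18.96 to 56.6 CPM (median 41.2), with 4 of 12 batch 2 controls above all of batch 1 (log2 fold change = 0.72, SE = 0.29, FDR = 0.0613). The Gq receptors thus went in opposite directions.

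Among the inhibitory receptors, Htr1b, which sits on axon terminals, ranged from 7.05 to 16.4 CPM (median 13.3) in batch 1 controls and from 13.1 to 20.2 CPM (median 15.5) in batch 2 (log2 fold change = 0.32, SE = 0.12, FDR = 0.0327). Htr1f ranged from 0.219 to 1.51 CPM (median 0.942) and from 0.197 to 0.753 CPM (median 0.484), so that the batch 2 range lay within that of batch 1 but for its lowest animal (log2 fold change = -0.85, SE = 0.27, FDR = 0.0154). Htr1a, a receptor on raphe cell bodies and limbic neurons, had medians of 3.31 and 4.01 CPM, with overlapping ranges of 2.04 to 4.90 and 2.97 to 5.51 (log2 fold change = 0.23, 95% interval -0.06 to 0.51, FDR = 0.237). The channel gene Htr3a had medians of 10.8 and 10.2 CPM (log2 fold change = -0.10, 95% interval -0.34 to 0.15, FDR = 0.599).

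**Figure D2:**
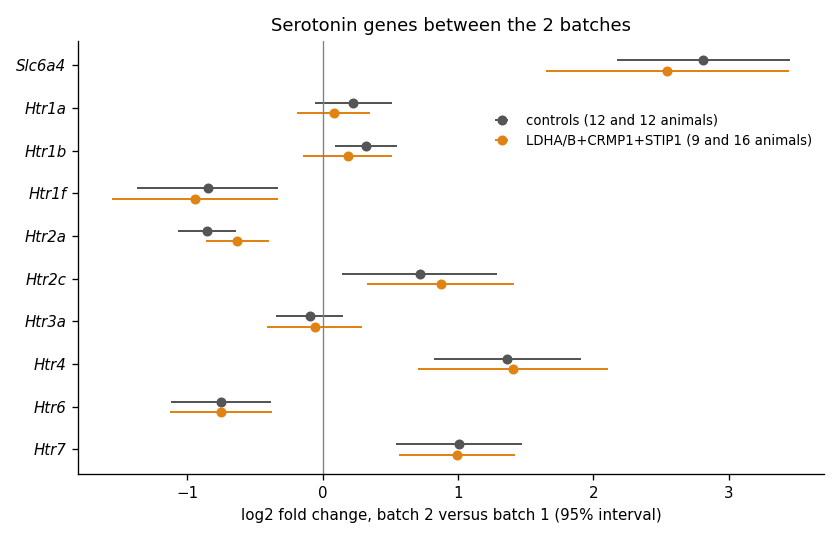
Log2 fold change of each gene between batch 2 and batch 1 (horizontal axis) with 95% intervals, in saline controls and, added after the data were seen, in LDHA/B+CRMP1+STIP1 animals. The control values run from 2.81 for Slc6a4 to -0.86 for Htr2a, and Htr1a and Htr3a have intervals that include 0 in both sets.

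The LDHA/B+CRMP1+STIP1 pattern, the one exposure present in both batches, gave a second set of animals for this comparison, chosen after the data were seen. In it, 7 of 10 members passed the test (background 41.3%), 4 higher (background 21.4%) and 3 lower (background 19.9%) in batch 2. Slc6a4 was higher by 2.55 on the log2 scale (SE = 0.46, FDR = 0.000162), Htr4 by 1.41 (SE = 0.36, FDR = 0.00362), Htr7 by 0.99 (SE = 0.22, FDR = 0.00101) and Htr2c by 0.87 (SE = 0.28, FDR = 0.0185). Htr1f differed by -0.94 (SE = 0.31, FDR = 0.0218), Htr2a by -0.63 (SE = 0.12, FDR = 0.00019) and Htr6 by -0.75 (SE = 0.19, FDR = 0.00404). Htr1b, at 0.19 (SE = 0.17, FDR = 0.414), did not pass here.

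Litters limited these calls. With litter as a random effect in limma voom, 5 of 10 members passed between the control batches (background 22.5%), namely Slc6a4 (log2 fold change = 2.65, SE = 0.71, FDR = 0.0112), Htr4 (1.59, SE = 0.35, FDR = 0.00291), Htr7 (1.19, SE = 0.30, FDR = 0.00759), Htr2a (-0.84, SE = 0.17, FDR = 0.00105) and Htr6 (-0.76, SE = 0.29, FDR = 0.0736). Htr1b (FDR = 0.203), Htr1f (FDR = 0.167) and Htr2c (FDR = 0.128) did not, and 7 members had an unadjusted p under 0.05 (background 29.5%). Leaving out control litter 7 in edgeR left 5 calls, with Htr2c at 0.44 (FDR = 0.175), Htr1f at -0.54 (FDR = 0.190) and Htr1b at 0.25 (FDR = 0.106). With each of the 7 control litters left out in turn, Htr2c passed in 3 fits, Htr1b in 4 and Htr1f in 6.

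Between batches lay 57.2% of the variance of Htr2a over the 71 animals, 49.9% of that of Htr4, 49.6% of that of Slc6a4 and 45.3% of that of Htr7, against a median of 10.2% over all genes tested. The share was 33.5% for Htr1f, 33.2% for Htr2c, 28.7% for Htr6, 9.07% for Htr1b, 6.92% for Htr1a and 0.740% for Htr3a. Within a batch and group, litter means held between 31.4% (Htr1f) and 48.9% (Slc6a4) of the sum of squares, against a median of 46.9% of all genes. This share is well above 0 even where litters do not differ, so it does not measure a litter effect. For Htr1f the SD within litters was 0.645 on the log2 scale, against 0.646 within groups, and for Slc6a4 it was 1.08 against 1.25. The spread within groups was widest for Slc6a4, with an SD of 1.25 on the log2 scale, and narrowest for Htr2a, at 0.29.

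The transporter also separated animals within batch 2. Of its 43 animals, 8 had Slc6a4 between 0.885 and 2.80 CPM, the range of batch 1, and the other 35 had 3.58 to 38.4 CPM. These 8 were 4 LDHA/B+CRMP1+STIP1 animals, 2 CRMP1+CRMP2 animals, 1 control and 1 STIP1+NSE animal. The vesicular transporter gene Slc18a2 was at 6.06 to 14.5 CPM in them and at 14.2 to 41.9 CPM in the other 35, and the thalamus marker Tcf7l2 at 11.04 to 319 and at 111 to 675 CPM. The groups were formed by Slc6a4 itself, so these are descriptions with no test.

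Of the 4 libraries highest for Slc6a4, 3 were also the highest for Tph2 and for Fev. The highest Slc6a4 value, 38.4 CPM, was that of a male CRMP1+CRMP2 animal with 13.7 CPM of Tph2 and 1.83 CPM of Fev, the highest of either gene. The other libraries over 2 CPM of Tph2 had Slc6a4 at 26.3 CPM (LDHA/B+CRMP1+STIP1, Tph2 9.60), 25.8 CPM (CRMP1+GDA, Tph2 7.17), 8.67 CPM (STIP1+NSE, Tph2 3.16) and 1.97 CPM (batch 1 control, Tph2 2.67). Fev was at 0 in 28 of the 43 batch 2 libraries. Without these 5 libraries, the same 8 of 10 members passed between the control batches (background 41.6%), and no member passed in any exposure comparison (backgrounds up to 1.88%).

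**Figure D3:**
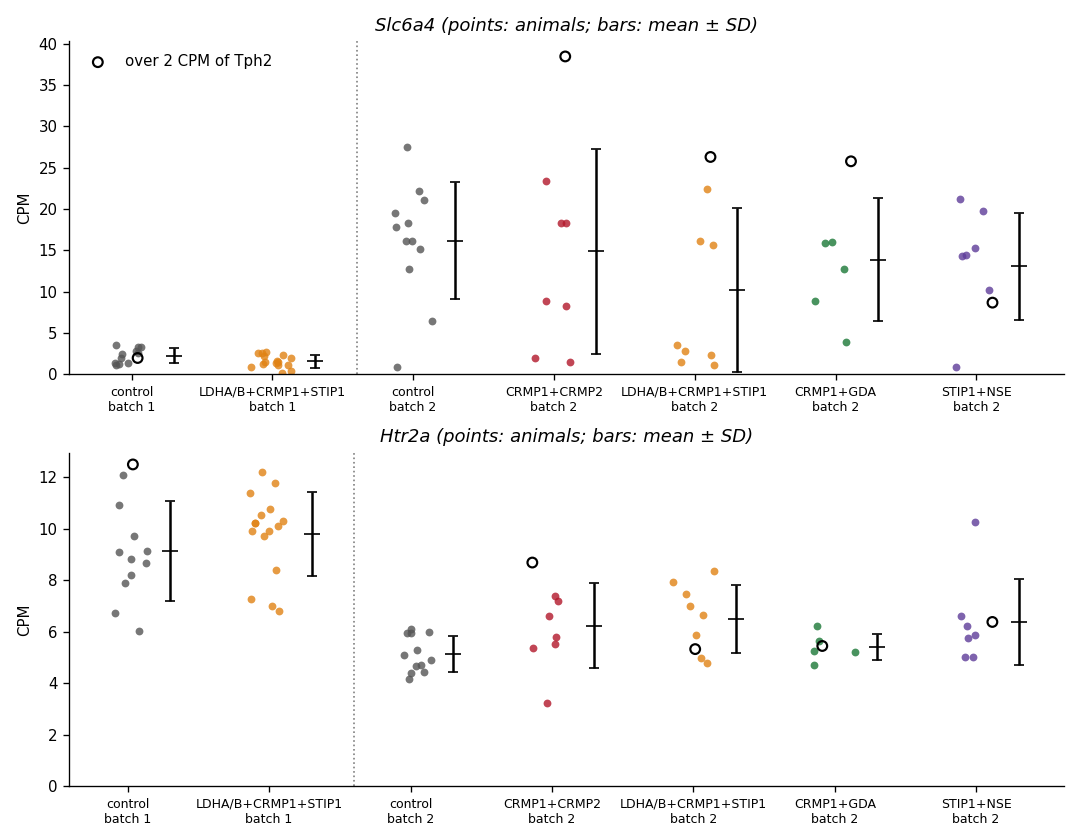
CPM of Slc6a4 and Htr2a in each animal by batch and group, with group means and SD, and open circles for the 5 libraries over 2 CPM of Tph2. Slc6a4 had a mean of 2.27 in batch 1 controls and 16.2 in batch 2 controls, and Htr2a of 9.15 and 5.13.

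Exposure was then compared with saline. All CRMP1+CRMP2, CRMP1+GDA and STIP1+NSE animals were in batch 2, while 12 of the 24 controls were in batch 1. The fits against all 24 controls held a surrogate variable and no batch term. For these patterns such fits cannot fully tell exposure from batch, and the batch 2 fits compare within a batch. Within each batch exposed and control ranges overlapped for every member. No member passed the test for MARA-AB exposure over 47 exposed and 24 control animals (edgeR with 1 surrogate variable, FDR < 0.1), where 0.0321% of 12477 genes did. At an unadjusted p under 0.05 the member was Htr7 alone, where 10.3% of genes passed, and DESeq2 called 0. Htr7 differed by -0.21 (SE = 0.10, 95% interval -0.41 to -0.01, FDR = 0.469). The intervals of the members ran from -0.88 at the lowest end (Slc6a4) to 0.32 at the highest (Htr1a), so larger differences in either direction lie outside them. In batch 2 alone, 0 of 9 members passed (background 0.0%), with Htr1f below the expression filter, 1 member passed at an unadjusted p under 0.05 (background 6.4%), and DESeq2 was not run on this subset. That member, Htr2a, was 0.26 higher (SE = 0.10, FDR = 0.752).

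For LDHA/B+CRMP1+STIP1, Slc6a4 in batch 1 ranged from 0.114 to 2.70 CPM (median 1.47, n = 16), against 1.16 to 3.55 CPM (median 2.23, n = 12) in controls. Of the 16 exposed animals, 4 lay below the lowest control, and the ranges overlapped otherwise. In batch 2 it ranged from 1.14 to 26.3 CPM (median 3.58, n = 9), against 0.899 to 27.5 CPM (median 17, n = 12), and the ranges overlapped throughout. The difference was -0.65 on the log2 scale over both batches (SE = 0.33, 95% interval -1.29 to -0.01, FDR = 0.699), -0.54 in batch 1 (SE = 0.28, FDR = 0.929) and -0.77 in batch 2 (SE = 0.54, FDR = 0.901). With the thalamus score as a covariate in batch 2, a fit added after the data were seen, it was -0.01 (SE = 0.39, FDR = 1.00).

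No member passed for this pattern over both batches (background 0.0157%), in batch 1 (0.0161%) or in batch 2 (0.0%) by edgeR, and DESeq2 called 0 over both batches. At an unadjusted p under 0.05 there was 1 member over both batches (background 7.17%), 0 in batch 1 (5.45%) and 1 in batch 2 (5.62%). Htr1a differed by 0.21 over both batches (SE = 0.10, FDR = 0.647) and by 0.11 in batch 2 (SE = 0.13, FDR = 0.941). Htr2a differed by 0.32 in batch 2 (SE = 0.11, FDR = 0.872) and by 0.11 in batch 1 (SE = 0.10, FDR = 0.981). Htr2a was 4.77 to 8.37 CPM (median 6.65) in the exposed animals of batch 2 and 4.17 to 6.11 CPM (median 4.99) in their controls, with overlapping ranges. A test of whether the exposure difference depended on the batch passed for 0 of 10 members by edgeR (background 0.11%) and by DESeq2, with 0 members at an unadjusted p under 0.05 (3.05%).

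For CRMP1+CRMP2, Htr7 was 2.71 to 8.69 CPM (median 6.55, n = 8), against 4.33 to 10.2 CPM (median 8.60) in the controls of its batch, with overlapping ranges. The lowest animals, at 2.71 and 2.94 CPM, held 111 and 15.1 CPM of Tcf7l2, the lowest of this pattern. The others had Htr7 at 6.08 to 8.69 CPM, within the control range. Htr7 differed by -0.41 from all 24 controls (SE = 0.17, FDR = 0.128) and by -0.48 in batch 2 alone (SE = 0.20, FDR = 0.198), neither past the threshold. The fit of this pattern with the thalamus score as a covariate is not listed here. This pattern had the most calls over all genes, 11.4% of 12691, and 0 of the 10 members were among them. In batch 2 alone 1.01% of genes passed, and 0 of 9 members. At an unadjusted p under 0.05 Htr7 was the 1 member in either fit (backgrounds 24.4% and 20%), and DESeq2 called 0 over all controls. Slc6a4 ranged from 1.52 to 38.4 CPM, and its difference turned from 0.57 (SE = 0.46, FDR = 0.447) against all controls to -0.33 (SE = 0.51, FDR = 0.728) within batch 2.

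**Figure D4:**
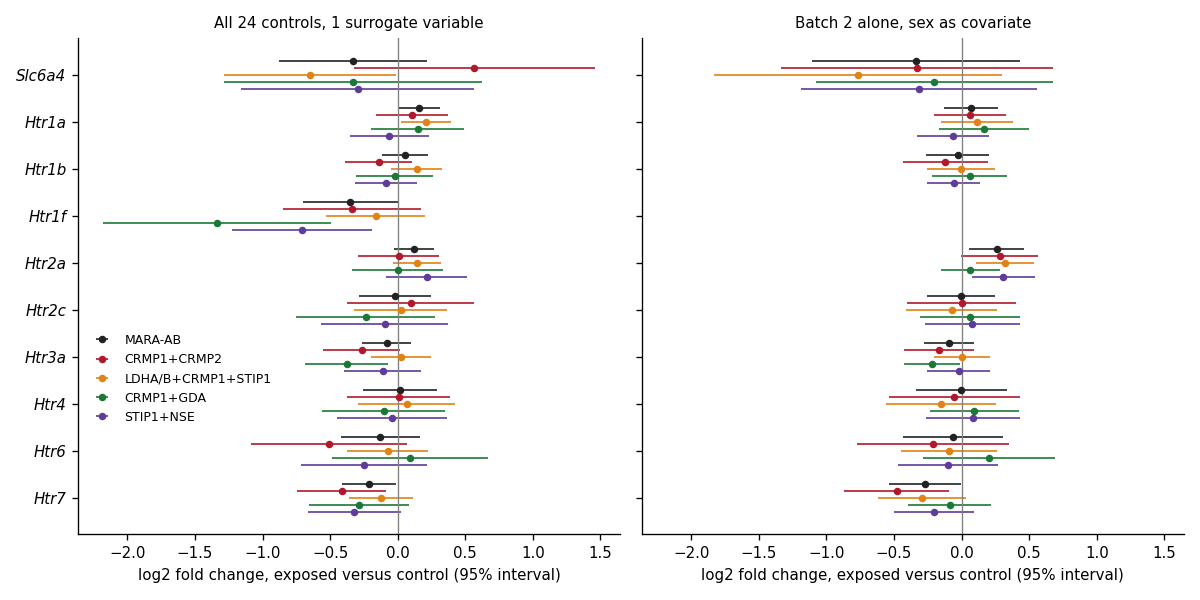
Log2 fold change of each member between exposed animals and saline controls with 95% intervals, by pattern, over both batches (left) and in batch 2 alone (right, where Htr1f was below the filter). The values furthest from 0 are those of Htr1f for CRMP1+GDA (-1.34) and STIP1+NSE (-0.71) on the left and Slc6a4 for LDHA/B+CRMP1+STIP1 (-0.77) on the right, and no member passed FDR < 0.1.

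For CRMP1+GDA and STIP1+NSE, Htr1f had the lowest values among the members. In batch 2 it ranged from 0 to 0.430 CPM (median 0.144, n = 6) for CRMP1+GDA and from 0.173 to 0.393 CPM (median 0.283, n = 8) for STIP1+NSE, against 0.197 to 0.753 CPM (median 0.484, n = 12) in controls. The ranges overlapped, and the CRMP1+GDA libraries held 0 to 12 counts of the gene. Against all 24 controls the difference was -1.34 for CRMP1+GDA (SE = 0.43, FDR = 0.999) and -0.71 for STIP1+NSE (SE = 0.26, FDR = 1.00).

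Since Htr1f lay below the filter in batch 2, an exact two-sided permutation test over animals was added after the data were seen. Of the 10 members only Htr1f was tested in this way, and the adjustment does not cover that choice. Littermates were permuted as separate animals. The test gave a difference from batch 2 controls of -1.48 for CRMP1+GDA (exact p = 0.0014, adjusted p = 0.00327 over 4 patterns) and -0.66 for STIP1+NSE (exact p = 0.00164, adjusted p = 0.00327). CRMP1+CRMP2 differed by -0.26 (exact p = 0.326, adjusted p = 0.337) and LDHA/B+CRMP1+STIP1 by -0.25 (exact p = 0.337, adjusted p = 0.337). Over litter means, with 3 and 4 exposed litters against 4, the exact permutation p was 0.0571 for CRMP1+GDA and 0.0571 for STIP1+NSE, adjusted 0.114, so neither passed over litters, although the differences were -1.43 and -0.60. These p double the smaller tail, by which 3 against 4 litters cannot go below 0.0571. Counted on the absolute difference, the exact permutation p over litters was 0.0286 for CRMP1+GDA and 0.0571 for STIP1+NSE, adjusted 0.114 for both.

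No member, Htr1f included, passed for these patterns by edgeR (CRMP1+GDA background 0.0%, 0.00798% in batch 2, and STIP1+NSE 0.0474%, 0.0% in batch 2), and DESeq2 called 0 over all controls. At an unadjusted p under 0.05 there were 2 members for CRMP1+GDA (background 3.65%), Htr1f and Htr3a, and 1 for STIP1+NSE (3.19%), Htr1f. In batch 2 alone the counts were 0 (5.1%) and 1 (2.66%). Htr3a was 7.80 to 10.5 CPM (median 8.28) for CRMP1+GDA and 7.40 to 13.5 CPM (median 10.2) in batch 2 controls, with overlapping ranges. It differed by -0.38 from all controls (SE = 0.16, FDR = 0.999) and by -0.22 in batch 2 alone (SE = 0.11, FDR = 0.969). Htr2a for STIP1+NSE differed by 0.31 in batch 2 (SE = 0.12, FDR = 1.00), with 5.01 to 10.3 CPM against 4.17 to 6.11 CPM. Without the library at 10.3 CPM, left out after the data were seen, the difference was 0.19 (SE = 0.10, FDR = 0.980).

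A joint test of the 5 groups in batch 2 passed for 0 of 9 members (background 0.00785%), with a smallest FDR of 0.641, and DESeq2 called 0. At an unadjusted p under 0.05 there were 0 members, where 7.78% of genes passed. Males and females differed for 0 of 10 (background 0.0641%), by DESeq2 too, with 0 members at an unadjusted p under 0.05 (4.66%). The differences furthest from 0, male minus female, were -0.30 for Htr1f (95% interval -0.64 to 0.03, FDR = 0.991) and 0.25 for Htr2c (-0.05 to 0.55, FDR = 0.991). Htr2c had means of 26.9 CPM in males and 17.6 CPM in females of batch 1, and of 39.7 and 38.8 CPM in batch 2. In batch 1 the male log2 mean was also higher for Htr4 (by 0.73), Htr3a (0.38), Htr7 (0.38), Htr6 (0.30), Htr1b (0.27) and Htr2a (0.11). It was lower for Slc6a4, Htr1a and Htr1f. The striatum list had medians of 590 CPM in males and 442 CPM in females of batch 1, and its part in the sex differences was not tested. A test of whether the exposure difference depended on sex passed for 0 of 10 members by edgeR (background 0.0%) and by DESeq2, with 0 members at an unadjusted p under 0.05 (3.54%).

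The members' levels were then set against marker scores within each batch, each score the mean log2 CPM of a list's detected genes, in 100 relations (10 members, 5 lists and 2 batches). At an adjusted p under 0.05, 53 passed. In batch 1 (n = 28) the closest relation with the thalamus score was that of Htr7 (r = 0.91, rho = 0.89, adjusted permutation p = 5.9e-05, the smallest that the permutations can give), and r was 0.90 without the 2 animals farthest from the median score. Htr2c followed (r = 0.81, rho = 0.83, adjusted permutation p = 5.9e-05, 0.82 without 2), and Slc6a4 did not pass (r = -0.28, rho = -0.29, adjusted permutation p = 0.23, -0.27 without 2). The batch 1 libraries lowest and highest on the thalamus score, at 2.66 and 4.44, had striatum scores of 4.95 and 6.25. Members were not set against both scores at once, so the 2 tissues cannot be told apart there.

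In batch 2, 5 libraries stood apart on the thalamus score, at 3.91 or below, and the other 38 were at 4.87 or above. These 5 were 2 CRMP1+CRMP2, 2 LDHA/B+CRMP1+STIP1 and 1 STIP1+NSE animals. The relations were therefore computed in the 38, a choice made after the data were seen, with p adjusted over the 10 members. Over all 43 libraries Slc6a4 went with the score at r = 0.69 (rho = 0.68, adjusted permutation p = 5.9e-05, 0.59 without 2), and in the 38 at r = 0.77 (rho = 0.72, adjusted permutation p = 0.0001, 0.64 without 2). The library with the highest Slc6a4, that of the CRMP1+CRMP2 male with 38.4 CPM, is 1 of the 5 left out and lies against the relation. The difference from the r of batch 1 was not tested. Htr4 also followed it (r = 0.56, rho = 0.63, adjusted permutation p = 0.0014, 0.55 without 2), as did Htr1b (r = 0.46, rho = 0.43, adjusted permutation p = 0.0078, 0.50 without 2). Htr7 passed by r (r = 0.47, rho = 0.37, adjusted permutation p = 0.0078, 0.55 without 2) and not by rho (adjusted p = 0.057). Htr2a went against it (r = -0.51, rho = -0.32, adjusted permutation p = 0.0046, -0.39 without 2), with an adjusted p of 0.11 for rho. For Htr4, Htr1b, Htr7 and Htr2a the planned values over all 43 are not listed here. The 5 libraries left out held Htr4 at -0.29 to 0.50 log2 CPM, against 0.73 or above in the 38. They held Htr7 at 1.47 to 2.77, against 2.04 or above, so leaving them out bears on both relations.

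**Figure D5:**
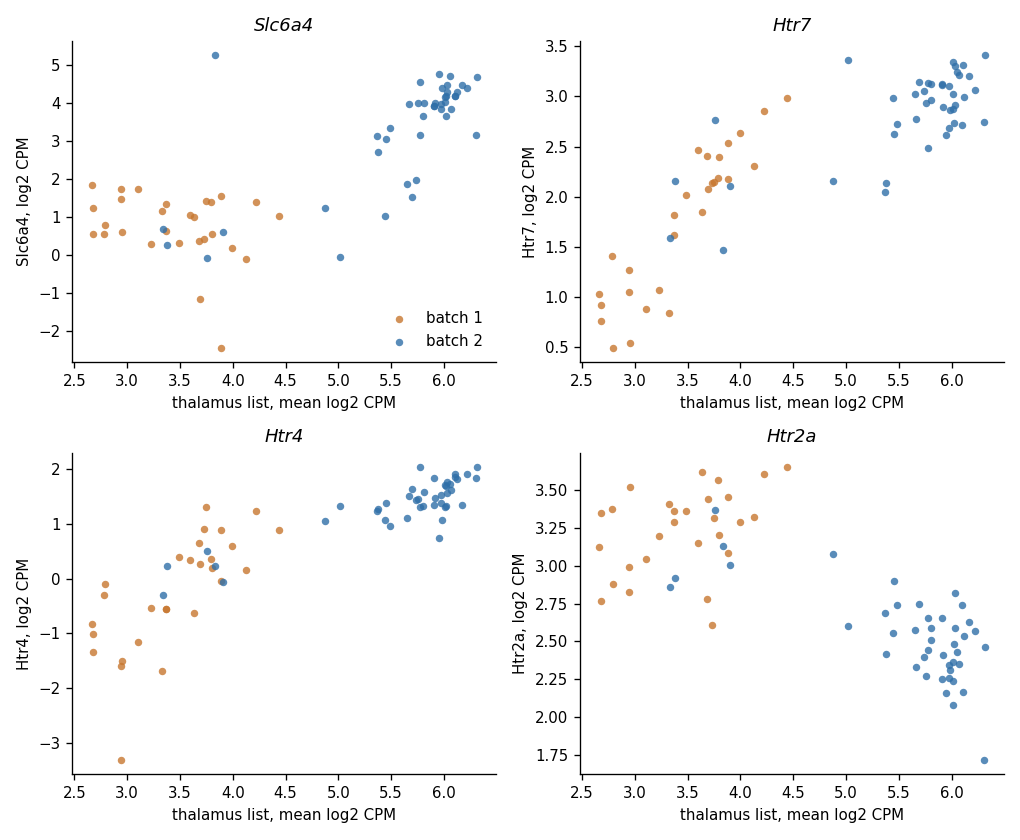
Log2 CPM of 4 members against the thalamus marker score (mean log2 CPM of 9 genes) in each animal of batch 1 and batch 2. In batch 2, 5 libraries at a score of 3.91 or below lie apart from the 38 at 4.87 or above, within which r is 0.77 for Slc6a4.

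In batch 1 the striatum score went with Htr2c (r = 0.92, rho = 0.71, adjusted permutation p = 5.9e-05, 0.87 without 2), Htr1b (r = 0.90, rho = 0.87, adjusted permutation p = 5.9e-05, 0.85 without 2), Htr6 (r = 0.87, rho = 0.78, adjusted permutation p = 5.9e-05, 0.83 without 2) and Htr3a (r = 0.87, rho = 0.82, adjusted permutation p = 5.9e-05, 0.80 without 2). The choroid plexus score went with Htr2c in both batches (r = 0.55, rho = 0.51, adjusted permutation p = 0.0065, 0.53 without 2 in batch 1, and r = 0.56, rho = 0.52, adjusted permutation p = 0.00055, 0.38 without 2 in batch 2). Slc6a4 went against it in both (r = -0.64, rho = -0.44, adjusted permutation p = 0.0012, -0.56 without 2, and r = -0.43, rho = -0.47, adjusted permutation p = 0.0076, -0.51 without 2). The batch 1 libraries at 2.53 to 3.15 on the choroid plexus score were exposed males, and the rest were at 0.95 or below. These males had the lowest Slc6a4 of batch 1, at -2.45 to -0.10 log2 CPM. Relations with the striatum score in batch 2, and with the caudal interneuron and cortical lists in either batch, are not listed here. The members share libraries and slices, so these relations are not independent of each other.

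Among all genes with a mean of at least 1 CPM, the one whose batch-centred level was most like that of Slc6a4 over 71 animals was Slc18a2 (r = 0.72), which fills vesicles with monoamines. Within batch 2 their r was 0.89 and within batch 1 it was -0.23. Tox (0.67) and Zfp423 (0.66) followed. For Htr7 the most alike were Hap1 (0.88), Efnb3 (0.87) and Zcchc12 (0.87), for Htr1b Tgfa (0.86), Dpp6 (0.85) and Zfp521 (0.84), and for Htr2c Tspan9 (0.83), Patj (0.81) and Oprk1 (0.81). The r of Htr2c with Tspan9, Patj and Oprk1 was 0.89, 0.93 and 0.94 in batch 1, and 0.64, 0.41 and 0.46 in batch 2. Htr4 was most like Dpp6 (0.79), Tox2 (0.79) and Ppp4r4 (0.78), and Htr6 like Abat (0.79), Alk (0.78) and Galnt13 (0.78). Htr3a was most like Tgfa (0.74), Pde1b (0.73) and Spats2l (0.73).

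The remaining members had no close match. Htr1a was most like Cntnap4 (0.60), Ebf3 (0.50) and Stxbp5l (0.49), Htr2a like Efnb2 (0.56), Fstl4 (0.51) and Tbr1 (0.50), and Htr1f like Map3k5 (0.54), Baalc (0.50) and Fhod3 (0.49). Between members, Htr7 and Htr4 had an r of 0.74, Htr7 and Htr2c 0.66, and Htr1b and Htr4 0.72. Slc6a4 and Htr4 had 0.56 in batch 2 and -0.36 in batch 1, and Slc6a4 and Htr1b 0.40 and -0.62.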

How the data were processed

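Poly-A RNA libraries of 71 PND2 brain slices were analysed. The deposited table holds whole-number counts per gene, which the authors made with featureCounts after aligning reads to the rat build rn7 (STAR 2.5.4b per the submitters' processing notes), and the exon length in bases that the authors' counting tool wrote. Whether multi-mapping reads were counted is not given in the sources used here. Of counts from 1 to 9, 74.5% were even, so low values can rest on fewer fragments than they state. Batch 1 titles number littermates 1 to 4, males first, and the deviations of equal numbers from their group means went together in the control and exposed groups (r = 0.21 to 0.40 over 11743 genes), so the number was also fitted as a replicate block. Littermates share a dam, so p-values over animals measure the spread between animals.

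Groups came from the labels, and batch from the title series; the study's methods state that its batches were handled and sequenced apart. CPM and RPKM were computed from library totals (median 28439200 counts). Contrasts were fitted over all genes in R 4.3.3 with edgeR 4.0.16 (TMM, robust quasi-likelihood, Benjamini-Hochberg, FDR < 0.1). Exposure contrasts carried 1 surrogate variable (sva 3.50.0) and kept genes at 1 CPM in at least 8 animals, or over 1 CPM in at least 2 for single patterns. Intervals of 95% are 1.96 SE on each side, slightly narrower than the tests imply. Alternatives used DESeq2 1.42.0, limma 3.58.1 (litter as a random effect), median-ratio size factors, no filter, other covariates, sums per litter, halved counts and litters left out in turn. Correlations used 100000 permutations, two-sided, on log2 CPM (prior count 2). The fits were tested on simulated counts with planted changes. These held no litter effect and no spread in slice composition, so that test does not bear on either limit. All 10 members are named, with pathway genes past the threshold and the 3 genes most alike to each member. The members and lists were chosen with earlier results of these data known.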

Additional observations from a re-analysis of the deposited data

Results flagged for a closer look

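Among 40 groups of 4 to 10 animals (batch 2 without controls, 10 members), 3 held an animal far from the rest by Dixon's ratio of gap to range, and chance gives about 1 group in 20. Htr2a was at 10.3 CPM in a female STIP1+NSE animal, against 6.61 CPM in the next of 8 (ratio 0.695, critical value 0.526). This library had 12.9 CPM of the thalamus marker Tcf7l2 and 1612 CPM of the choroid plexus marker Ttr. A female CRMP1+GDA animal was the highest of 6 for Htr4, at 4.01 against 2.69 CPM (ratio 0.825, critical value 0.625), and for Htr6, at 4.62 against 2.53 CPM (ratio 0.650, critical value 0.625). That library held 7.17 CPM of Tph2, 0.502 CPM of Fev and 589 CPM of Tcf7l2. The part of these marker levels in the distant values was not tested.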

How the results depend on the processing

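Under the alternatives, 8 counts of members called or relations passed moved by over 1.5 times. Direction was checked only for members called in the main fit, all between control batches, and none of these reversed. Some members not called changed sign. For CRMP1+CRMP2, Slc6a4 (0.57 in the main fit) ran from -0.51 to 0.71 and Htr6 (-0.51) from -0.69 to 0.30. For CRMP1+CRMP2 the count went from 0 to 1 with PC1 and PC2 (Htr7, log2 fold change = -0.67, SE = 0.20, FDR = 0.0291), and it ranged from 0 to 2 as litters were left out. Htr7 passed without CRMP1+CRMP2 litter 1 (FDR = 0.0927) and without litter 4 (FDR = 0.0447), Htr6 without litter 4 (-0.82, FDR = 0.0900) and Htr3a without control litter 2 (-0.38, FDR = 0.0737). Between control batches the count went from 8 to 5 with litter as a random effect and to 5 with counts summed per litter, and ranged from 5 to 8 as litters were left out. On litter means, 27 relations passed in place of 53. The cause was not tested, and litter fits hold fewer units. For LDHA/B+CRMP1+STIP1, CRMP1+GDA and STIP1+NSE the count was 0 under every alternative run. With the title number as a replicate block in batch 1, the count for LDHA/B+CRMP1+STIP1 was 0, as without it. The block changed no call of a member. Htr1f has no value in batch 2 fits, where it lay below the filter, and its 0 to 24 counts there limit what can be said of it.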

Other observations

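The other genes of the serotonin pathway (5 further receptors, 10 genes of synthesis and packaging and 7 of uptake and breakdown) were read in the same edgeR fits. Between control batches, Slc18a2 (log2 fold change = 1.56, SE = 0.18, FDR = 4.23e-07), Gch1 (1.22, SE = 0.25, FDR = 0.000432), which makes the cofactor of the hydroxylases, and Ddc (0.80, SE = 0.21, FDR = 0.00529), the decarboxylase of serotonin synthesis, were higher in batch 2, 3 of 7 tested, where 41.5% of all genes passed in either direction and 21.3% were higher. Of uptake and breakdown genes, Aldh2 (0.43, SE = 0.09, FDR = 0.000463) and Asmt (0.52, SE = 0.17, FDR = 0.018) were higher and Slc22a3, a low-affinity carrier, was lower (-0.99, SE = 0.17, FDR = 8.7e-05), 3 of 6 tested, near the share of all genes. Of the other receptors 1 of 3 tested passed, Htr5a (0.38, SE = 0.15, FDR = 0.0576). With litter as a random effect in limma voom 2, 2 and 0 genes of the 3 lists passed (22.5% of all genes), and Ddc (FDR = 0.113), Asmt (FDR = 0.243) and Htr5a (FDR = 0.179) did not. Htr3b was at 0 in 58 of 71 libraries and Htr2b in 30.

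For CRMP1+CRMP2 against all controls, 4 of 8 synthesis genes passed (11.4% of all genes did), Tph1 (6.01, SE = 0.76, FDR = 5.6e-05), Tph2 (1.71, SE = 0.45, FDR = 0.0273) and Gch1 (1.39, SE = 0.30, FDR = 0.00933) higher and Qdpr (-0.21, SE = 0.06, FDR = 0.0518) lower. Of uptake and breakdown genes 3 of 7 passed, Aanat (3.84, SE = 0.64, FDR = 0.000978) and Asmt (0.59, SE = 0.19, FDR = 0.068) higher and Maoa (-0.21, SE = 0.06, FDR = 0.0378) lower. In batch 2 alone, 0 of either list passed in edgeR (4 of 8 and 2 of 7 at an unadjusted p under 0.05, where 20% of all genes were). Tph1, Aanat and Asmt are genes of melatonin synthesis in the pineal gland, and Tph1 exceeded 10 CPM in 5 libraries, at 30.3 to 189 CPM, all in batch 2. In CRMP1+CRMP2 it was at 189 and 54.0 CPM in 2 animals and at 0.225 to 1.03 CPM in the other 6, and Tph2 at 13.7 CPM in 1 animal and at 0.166 to 1.38 CPM in the other 7. In fits added after the data were seen, without the libraries over 10 CPM of Tph1, Tph1 was at 0.44 (SE = 0.46, FDR = 0.592), Tph2 passed at 2.04 (FDR = 0.0517) and 0 of 6 uptake and breakdown genes did. Without the libraries over 2 CPM of Tph2, Tph2 was at 0.21 (SE = 0.35, FDR = 0.794), and Tph1, Gch1 and Aanat were the genes of these lists that passed (1.88% of all genes did). For STIP1+NSE Tph1 passed (4.43, SE = 0.80, FDR = 0.0215), at 59.8 and 30.7 CPM in 2 animals, and did not in batch 2 alone or without them (-0.15, SE = 0.52, FDR = 0.999).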
